A study of Rattus norvegicus with 12 samples.

Results

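The auxiliary subunits of voltage-gated calcium channels were examined as a group of 8 genes, chosen by name. They were the 4 β subunit genes (*Cacnb1*, *Cacnb2*, *Cacnb3* and *Cacnb4*) and the 4 α2δ subunit genes (*Cacna2d1*, *Cacna2d2*, *Cacna2d3* and *Cacna2d4*). All 8 were among the 37209 genes of the count table, and all 8 passed the filter on low counts, which kept 20944 genes for testing.

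The tissue was the central nucleus of the amygdala (CeA) of 12 adult male wild type Sprague Dawley rats aged 14 to 16 weeks. The 6 CIE rats (numbers 1 to 6) had received chronic intermittent ethanol as vapor and were killed right after the last ethanol exposure. The 6 Control rats (numbers 7 to 12) had breathed air in place of ethanol vapor and were killed right after their last air exposure. Each library came from the CeA punch of 1 rat, taken from frozen sections, and was sequenced after poly-A enrichment. The titles of all 12 samples carry the same CIE suffix, so the groups were taken from the treatment labels. No gene was targeted in this design, so no gene checks the labels. Rats were group housed and the labels do not tie rats to cages, so rats that shared a cage were treated as independent.

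A high-voltage-activated calcium channel consists of a pore-forming α1 subunit with a β and an α2δ subunit bound to it. The β subunit is cytosolic and binds the intracellular loop between the first and second repeats of the pore, where it promotes delivery of the channel to the membrane and shapes its gating. The α2δ subunit is an extracellular protein anchored to the membrane, which raises the number of channels at the surface and at presynaptic release sites, and the products of *Cacna2d1* and *Cacna2d2* are the binding sites of gabapentin and pregabalin. In neurons these subunits therefore bear on transmitter release and on calcium entry, and the CeA is made up mostly of GABA neurons. The question put to the data was whether the mRNA of these subunits differed between CIE and Control rats.

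Some features of the libraries bear on the values below. Total counts ranged from 61978486 to 78441691 in CIE and from 39082548 to 95647601 in Control rats. The neuron list was high in all rats, with a summed level of 3328 to 4157 CPM (read counts scaled to a common library total), and the 3 GABA neuron markers (*Gad1*, *Gad2* and *Slc32a1*) summed to 1268 to 1690 CPM. The 8 markers of CeA neurons, such as *Prkcd* and *Sst*, summed to 278 to 547 CPM in CIE and 412 to 607 CPM in Control rats. Of these 8 markers, 3 were lower in CIE at nominal p and none was higher, where 8.31% of all genes passed in either direction. Their median log2 fold change was -0.18. Markers of neighbouring regions varied much more. The 8 striatal projection neuron markers, such as *Drd1* and *Drd2*, summed to 3595 CPM in CIE rat 2 and 3981 CPM in Control rat 10, against 1638 CPM in CIE rat 4 and 261 to 898 CPM in the other 9 rats. The 8 cortical glutamatergic markers, such as *Slc17a7*, summed to 734 CPM in CIE rat 1, 551 CPM in CIE rat 4, 517 CPM in CIE rat 2 and 420 CPM in Control rat 10, against 227 to 319 CPM in the others. CIE rat 2 and Control rat 10 thus stood apart from the rest of their groups on the striatal markers. Results are given with and without both. On the cortical markers CIE rats 1 and 4 were above CIE rat 2. The median log2 fold change of the 8 cortical markers was 0.85 with all rats, and 1 was higher in CIE at nominal p. Fits without CIE rat 2 and Control rat 10 still hold CIE rats 1 and 4. Cortical sums in the Control rats left in were at most 319 CPM. Of the 8 myelin markers, 7 were lower in CIE at nominal p and none was higher, where 8.31% of all genes passed in either direction. In bulk tissue, fewer cells of a type and less RNA per cell cannot be told apart.

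Sequences upstream of the genes are shown first for *Cacnb2*, *Cacnb3* and *Cacna2d3*, because these 3 genes varied together from rat to rat with and without the rats that stood apart (below). RefSeq windows were found for 5 of the 8 members (*Cacnb2*, *Cacnb3*, *Cacna2d1*, *Cacna2d2* and *Cacna2d3*), with 8 start sites in all. Each run gives the 250 bases before an annotated start on build GRCr8, which is not the build the reads were mapped to, in the direction of the gene. Capitals mark the GC box, GGGCGG or CCGCCC on the other strand, and overlapping matches run together.

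Cacnb2 (chr17:82472965-82473214, plus strand): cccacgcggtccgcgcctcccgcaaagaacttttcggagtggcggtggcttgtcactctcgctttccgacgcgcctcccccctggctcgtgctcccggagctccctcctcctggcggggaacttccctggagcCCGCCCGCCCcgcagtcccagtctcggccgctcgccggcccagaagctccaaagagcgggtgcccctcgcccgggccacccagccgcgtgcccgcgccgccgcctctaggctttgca
Cacnb3 (chr7:131666301-131666550, plus strand): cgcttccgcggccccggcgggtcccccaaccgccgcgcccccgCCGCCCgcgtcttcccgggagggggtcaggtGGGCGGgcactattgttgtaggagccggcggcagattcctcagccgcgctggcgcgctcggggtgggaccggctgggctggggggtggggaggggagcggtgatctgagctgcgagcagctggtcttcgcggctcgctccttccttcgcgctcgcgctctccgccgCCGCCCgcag
Cacna2d3 (chr16:4918900-4919149, minus strand): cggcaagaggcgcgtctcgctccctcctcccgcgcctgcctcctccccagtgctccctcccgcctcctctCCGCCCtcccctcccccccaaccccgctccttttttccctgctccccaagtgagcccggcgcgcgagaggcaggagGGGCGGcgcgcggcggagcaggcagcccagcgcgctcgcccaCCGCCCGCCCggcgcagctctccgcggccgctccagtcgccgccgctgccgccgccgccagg

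The *Cacnb2* window held 2 GC boxes, the *Cacnb3* window 3 and the *Cacna2d3* window 4, against at least 1 in 30.5% of all 33469 windows of this length. Their GC contents were 73.2%, 76.4% and 78.8%, above those of 95.1%, 97.4% and 98.5% of all windows, whose median was 51.2%. Other members had GC-rich windows as well. The *Cacna2d2* window held 2 GC boxes at 76.8% GC, and the 3 overlapping or adjacent *Cacna2d1* windows held 3, 3 and 7. A downstream start of *Cacnb2* (chr17:82596542-82596791) differed, with no GC box, 45.6% GC and 3 CpG dinucleotides. None of the 8 windows held TGACGTCA, CACGTG or TATAAA on either strand, which occurred in 1.59%, 5.59% and 12.9% of all windows. These matches describe the letters of the windows and say nothing about which factors bind there.

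No β or α2δ subunit gene passed the test of CIE against Control rats. In the edgeR quasi-likelihood test 0 of 8 passed nominal p 0.05, where 8.31% of all genes tested did. None passed 5% FDR, where 0.363% of all genes did, and in none were the groups free of overlap, where 0.893% of all genes were. With 1 surrogate variable 0 of 8 passed nominal p, and DESeq2 also called none. The share of all genes called was not taken for either of these fits. The fold change was above 1 in 7 of 8 members, with a median log2 fold change of 0.10 against 0.00 over all genes, of which 50.3% were above 0. That direction did not hold under every setting. Members above 0 numbered 4 of 8 without CIE rat 2 and 5 of 8 with 1 surrogate variable. They numbered 3 of 8 when the fit held the cortical and striatal marker scores. Without both CIE rat 2 and Control rat 10 they numbered 7 of 8, with a median of 0.14. Without CIE rat 3 or without Control rat 7, each left out alone, they numbered 8 of 8. Over all 8 members the estimates and their intervals are the result, because a test that misses the threshold does not show that levels were alike. The intervals of the 7 abundant members leave room for changes of up to 1.54-fold in *Cacnb2* and 1.45-fold in *Cacnb3*.

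**Figure D1:**
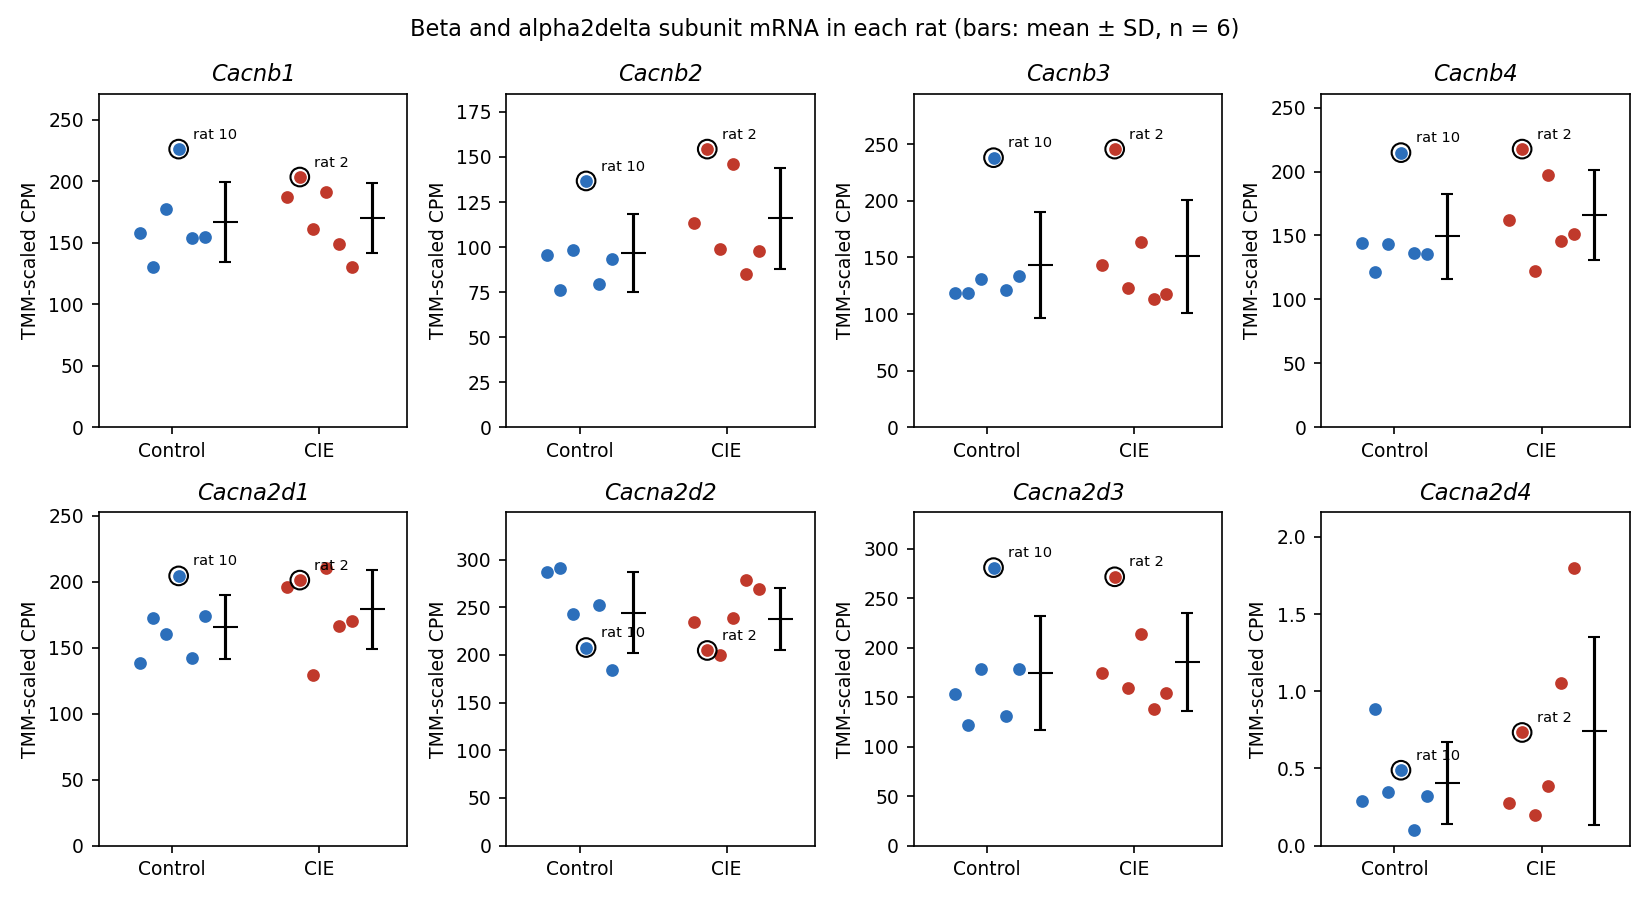
Level of each β and α2δ subunit mRNA in each rat, in CPM scaled by the TMM method, with the group on the horizontal axis, 1 point per rat and bars at the mean ± SD of 6 rats. CIE rat 2 and Control rat 10 are circled, and they hold the highest values of *Cacnb1*, *Cacnb3*, *Cacnb4* and *Cacna2d3*, while the groups overlap in all 8 panels.

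Among the β subunits, *Cacnb1* encodes the isoform first found in skeletal muscle, which is also made in neurons. Its level was 130 CPM in the lowest, 174 CPM in the median and 203 CPM in the highest CIE rat, and 130, 156 and 226 CPM in Control rats. The groups covered nearly the same range, and Control rat 10 was the highest of all. The means were 170 ± 28.3 CPM in CIE and 167 ± 32.7 CPM in Control (SD, n = 6 each), a log2 fold change of 0.03 with a 95% interval of -0.26 to 0.32 (edgeR, FDR 0.971; exact permutation test, two-sided, p = 0.810).

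*Cacnb2* encodes a β subunit known from the heart and brain, whose splice forms can be anchored to the membrane by palmitoylation. It ranged from 85.1 to 154 CPM in CIE with a median of 106 CPM, and from 76.0 to 137 CPM in Control rats with a median of 94.5 CPM. CIE rats 2 and 4 lay above every Control rat, 5 of 6 CIE rats lay above the Control median, and the other 4 CIE rats were inside the Control range. The means were 116 ± 28.1 CPM in CIE and 96.5 ± 21.7 CPM in Control (SD, n = 6 each), a log2 fold change of 0.26 with a 95% interval of -0.09 to 0.62 (edgeR, FDR 0.732; exact permutation test, two-sided, p = 0.190). This was the largest estimate among the 7 abundant members in this fit, and it moved in either direction with single rats and settings. It was 0.16 without CIE rat 2 (edgeR FDR 0.886), 0.13 with 1 surrogate variable (edgeR FDR 0.533) and 0.06 with both the cortical and striatal scores in the fit (edgeR FDR 0.863). Without Control rat 10 it was 0.39 with an interval of 0.09 to 0.70 and passed nominal p. Without both CIE rat 2 and Control rat 10 it was 0.29, with an interval of 0.01 to 0.57 and an edgeR FDR of 0.553. *Cacnb2* was then the 1 member of 8 past nominal p, where 8.81% of all genes were. It did not pass 5% FDR in any of these fits. The fit without both rats kept CIE rats 1 and 4, which had the highest cortical marker sums, and it held no marker score.

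*Cacnb3* encodes a β subunit abundant in brain that often accompanies N-type channels. Its CIE values ran from 113 CPM through a median of 133 CPM to 246 CPM, and its Control values from 118 CPM through 126 CPM to 238 CPM. The top value of each group came from the rats that stood apart, and the other 10 rats lay between 113 and 163 CPM. The means were 151 ± 50.0 CPM in CIE and 143 ± 46.9 CPM in Control (SD, n = 6 each), a log2 fold change of 0.07 with a 95% interval of -0.38 to 0.53 (edgeR, FDR 0.954; exact permutation test, two-sided, p = 0.710). Without both rats the estimate was 0.09, with an edgeR FDR of 0.843.

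*Cacnb4* encodes the β subunit whose loss causes ataxia and seizures in the lethargic mouse. It was measured at 122, 156 and 218 CPM in the lowest, median and highest CIE rat, and at 121, 140 and 215 CPM in Control rats. Again CIE rat 2 and Control rat 10 were on top, and 5 of 6 CIE rats lay above the Control median. The means were 166 ± 35.4 CPM in CIE and 149 ± 33.1 CPM in Control (SD, n = 6 each), a log2 fold change of 0.15 with a 95% interval of -0.18 to 0.48 (edgeR, FDR 0.852; exact permutation test, two-sided, p = 0.364). Without Control rat 10, *Cacnb4* was 0.29 and *Cacnb2* and *Cacnb4* were the 2 of 8 members past nominal p, where 11.4% of all genes were. Without CIE rat 2 *Cacnb4* was 0.06 (edgeR FDR 0.966), and without both rats it was 0.19 with an interval of -0.04 to 0.43 and did not pass.

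Among the α2δ subunits, *Cacna2d1* encodes the main gabapentinoid target, which is also a receptor for thrombospondins. Its CIE values were 129, 183 and 211 CPM (lowest, median, highest) and its Control values 138, 167 and 204 CPM. CIE rat 4 was the highest and CIE rat 3 the lowest of all 12. The means were 179 ± 29.97 CPM in CIE and 165 ± 24.2 CPM in Control (SD, n = 6 each), a log2 fold change of 0.11 with a 95% interval of -0.15 to 0.37 (edgeR, FDR 0.860; exact permutation test, two-sided, p = 0.442).

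*Cacna2d2* encodes the second gabapentinoid target, whose loss in the ducky mouse causes ataxia and absence seizures. Its level ran from 200.1 CPM through 237 CPM to 279 CPM in CIE and from 185 CPM through 248 CPM to 292 CPM in Control rats. All 6 CIE rats were inside the Control range. Unlike the β genes, its values in CIE rat 2 (205 CPM) and Control rat 10 (208 CPM) were low within their groups. The means were 238 ± 32.3 CPM in CIE and 244 ± 42.4 CPM in Control (SD, n = 6 each), a log2 fold change of -0.04 with a 95% interval of -0.30 to 0.22 (edgeR, FDR 0.957; exact permutation test, two-sided, p = 0.812).

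*Cacna2d3* encodes an α2δ subunit known for a role in pain and hearing that gabapentinoids do not bind. Its CIE values were 138, 167 and 272 CPM and its Control values 122, 166 and 281 CPM (lowest, median, highest). All 6 CIE rats were inside the Control range, and CIE rat 2 and Control rat 10 were again on top. The means were 185 ± 49.5 CPM in CIE and 174 ± 57.4 CPM in Control (SD, n = 6 each), a log2 fold change of 0.09 with a 95% interval of -0.35 to 0.53 (edgeR, FDR 0.940; exact permutation test, two-sided, p = 0.639).

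*Cacna2d4*, known from photoreceptors, where its loss causes retinal dysfunction, was scarce in the CeA. It had 13 to 146 counts per CIE rat and 4 to 85 counts per Control rat. In CPM that was 0.201, 0.560 and 1.80 in the lowest, median and highest CIE rat, and 0.103, 0.333 and 0.884 in Control rats. CIE rats 5 and 6 were above every Control rat, and the lowest CIE rat was below the Control median. The means were 0.742 ± 0.608 CPM in CIE and 0.406 ± 0.265 CPM in Control (SD, n = 6 each), a log2 fold change of 0.84 with a 95% interval of -0.33 to 2.02 (edgeR, FDR 0.745; exact permutation test, two-sided, p = 0.284). The log2 fold change was 0.36 without CIE rat 6 and 1.25 without Control rat 8. Without Control rat 8 it was the 1 member past nominal p, where 6.47% of all genes were. The 4 photoreceptor markers summed to at most 1.15 CPM in any rat.

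**Figure D2:**
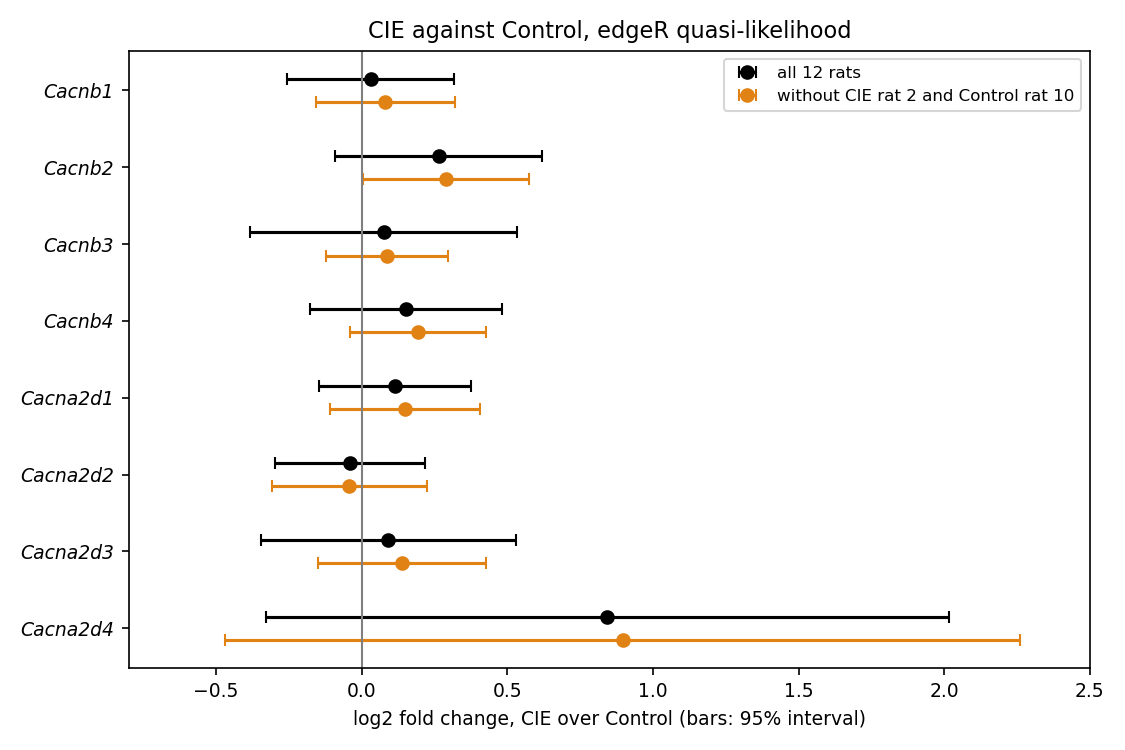
Log2 fold change of CIE over Control for the 8 subunit genes, with 95% intervals from edgeR, over all 12 rats (black) and without CIE rat 2 and Control rat 10 (orange). All 8 black intervals include 0, the orange interval of *Cacnb2* runs from 0.01 to 0.57, and *Cacna2d4* has by far the widest interval.

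Other fits drew out other members, and none reached 5% FDR. Limma-voom with sample quality weights put 3 of 8 past nominal p, where 17.2% of all genes were, namely *Cacnb2* at 0.39, *Cacnb4* at 0.29 and *Cacna2d1* at 0.24 (limma FDR 0.192, 0.226 and 0.235). When the cortical and striatal scores entered the fit, *Cacnb3* alone passed, in the opposite direction at -0.17 (edgeR FDR 0.476), where 9.11% of all genes passed. With the myelin score as covariate *Cacna2d4* alone passed at 1.80 (edgeR FDR 0.236), where 10.7% of all genes passed. The summed myelin markers ran from 5466 to 13311 CPM in CIE and from 8395 to 15718 CPM in Control rats, and their part in the *Cacna2d4* value was not tested further.

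The members also differed among rats of the same group. Of the 11320 genes with at least 10 CPM on average, *Cacnb3* had a larger within-group SD of log2 CPM than 94.98%, *Cacna2d3* than 94.7%, *Cacnb2* than 90.7% and *Cacnb4* than 88.2%. *Cacnb1* (83.8%), *Cacna2d1* (79.2%) and *Cacna2d2* (78.0%) were lower in this order, and *Cacna2d4* was below 10 CPM. This order depended on the rats that stood apart. Without CIE rat 2 and Control rat 10 *Cacnb3* was at 62.8%, the lowest of the 7 genes, and *Cacna2d3* was the highest at 86.5%. From the lowest to the highest rat *Cacnb3* spanned 2.17-fold over all rats and 1.44-fold over the 10, *Cacna2d3* 2.31-fold and 1.76-fold, and *Cacna2d2* 1.58-fold in both. These genes were not matched on abundance.

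After removal of the group means, 11 of the 28 pairs of members were correlated over the 12 rats at an adjusted permutation p under 0.05, all positively. These were the 10 pairs among *Cacnb1*, *Cacnb2*, *Cacnb3*, *Cacnb4* and *Cacna2d3*, and the pair *Cacnb4* and *Cacna2d1*. The share of correlated pairs among other genes was not taken. The counts of pairs here therefore do not show that such correlation is particular to these subunits. Because CIE rat 2 and Control rat 10 lay apart, coefficients are given over the other 10 rats, where 3 of 28 pairs passed. *Cacnb2* and *Cacna2d3* had r = 0.93 and rho = 0.90 (permutation test, adjusted p = 0.00896 for r and unadjusted p = 0.00252 for rho), and r was 0.91 after the 2 rats farthest from the median of *Cacnb2* were left out as well. *Cacnb3* and *Cacna2d3* had r = 0.84 and rho = 0.73 (permutation test, adjusted p = 0.00896 and unadjusted p = 0.00921), with r = 0.79 without the 2 farthest rats. *Cacnb2* and *Cacnb3* had r = 0.90 and rho = 0.67 (permutation test, adjusted p = 0.0340 and unadjusted p = 0.0413), with r = 0.68 without the 2 farthest rats. The other 7 pairs of that group had r of 0.59 to 0.79 over the 10 rats and did not pass. *Cacna2d2* and *Cacna2d3* had r = -0.55 and rho = -0.66 over the 10 rats, which did not pass either (permutation test, adjusted p = 0.265).

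**Figure D3:**
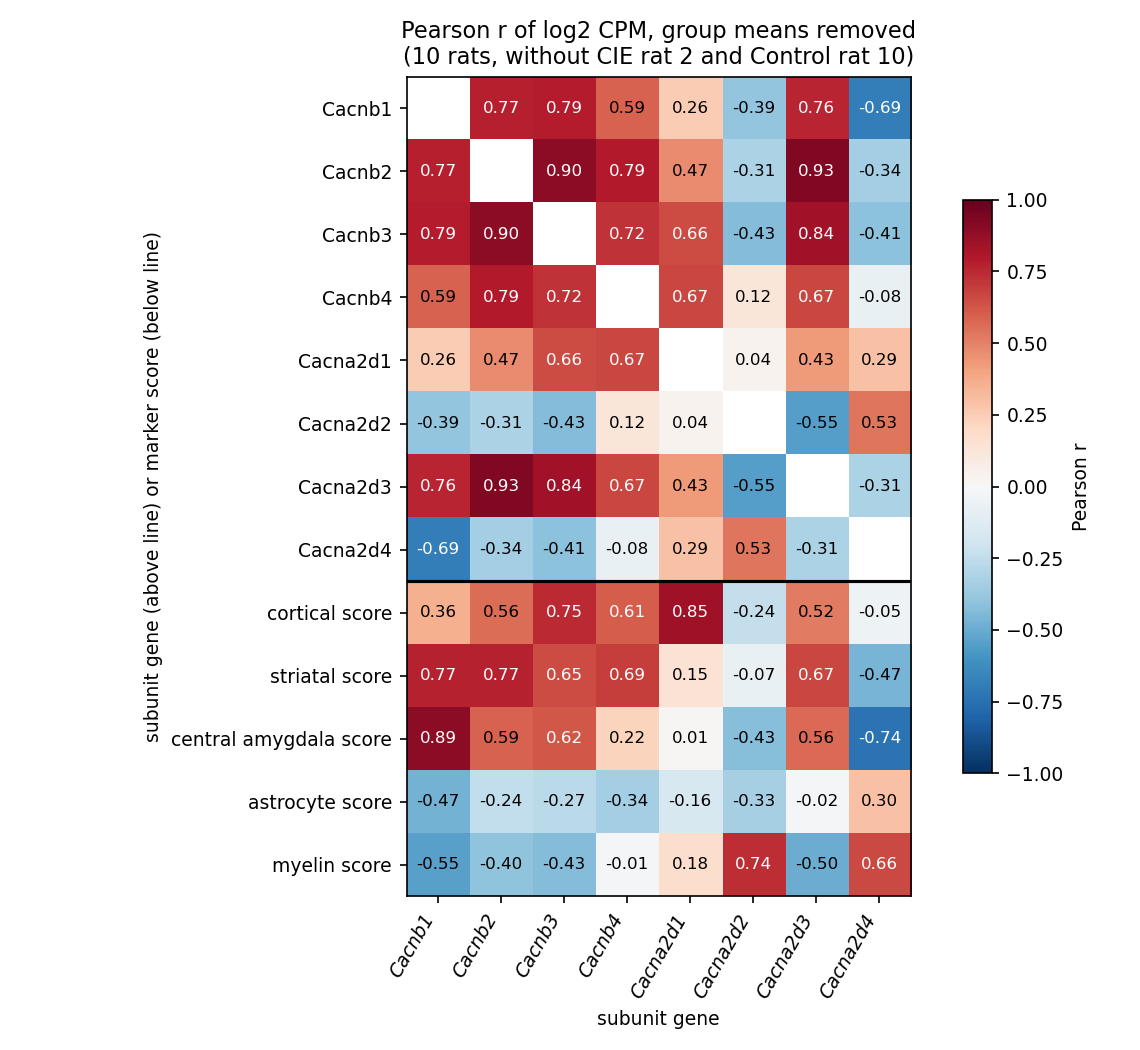
Pearson r of log2 CPM across 10 rats after removal of the group means, between the 8 subunit genes (above the line) and between each gene and 5 marker scores (below the line), with color and printed values from -1 to 1. The β genes and *Cacna2d3* form a block of r from 0.59 to 0.93, *Cacna2d2* is at -0.55 with *Cacna2d3*, and *Cacna2d1* is at 0.85 with the cortical score.

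The ratio of both α2δ genes was also taken within each library. The count of *Cacna2d3* per count of *Cacna2d2* was 1.33 in CIE rat 2 and 1.35 in Control rat 10, and 0.417 to 0.969 in the other 10 rats. By group it was 0.806 ± 0.295 in CIE and 0.755 ± 0.352 in Control (SD, n = 6 each), so the groups did not separate. Transcript lengths were not at hand, so the genes are not ranked by level, and such a ratio compares rats only.

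The mix of subunit counts was described by shares within each family. *Cacnb2* made up 19.2% ± 1.22 of the summed β subunit CPM in CIE and 17.4% ± 0.889 in Control rats, and *Cacnb1* 28.6% ± 2.85 and 30.2% ± 1.61. *Cacnb3* was at 24.7% ± 2.62 and 25.5% ± 2.23, and *Cacnb4* at 27.6% ± 2.30 and 26.9% ± 0.830 (SD, n = 6 each). In the α2δ family *Cacna2d2* was at 39.8% ± 6.35 in CIE and 42.2% ± 8.43 in Control, *Cacna2d3* at 30.6% ± 5.83 and 29.4% ± 6.98, and *Cacna2d1* at 29.5% ± 2.20 and 28.3% ± 2.83. *Cacna2d4* never exceeded 0.302% of its family. These shares were not tested. The group means differed by less than the SD of at least 1 group in all but *Cacnb2*, whose means lay 1.76 percentage points apart.

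Because the punches differed in markers of neighbouring tissue, the members were set against 5 marker scores, each the mean log2 CPM of 8 markers. Over 12 rats 7 of 40 relations passed an adjusted permutation p of 0.05. They were the striatal score with *Cacnb1*, *Cacnb2*, *Cacnb3*, *Cacnb4* and *Cacna2d3*, and the cortical score with *Cacna2d1* and *Cacnb3*. None of the 5 striatal relations passed over the other 10 rats, though r stayed positive. It was 0.77 for *Cacnb1*, 0.77 for *Cacnb2*, 0.65 for *Cacnb3*, 0.69 for *Cacnb4* and 0.67 for *Cacna2d3* (permutation test, adjusted p = 0.138, 0.144, 0.212, 0.204 and 0.260). Spearman's rho over the same rats was 0.72, 0.71, 0.45, 0.78 and 0.53 (permutation test, unadjusted p = 0.0107, 0.0402, 0.147, 0.00913 and 0.156). When CIE rat 4 and Control rat 9, the next farthest, were left out too, r was 0.58, 0.39, 0.14, 0.32 and 0.17.

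*Cacna2d1* had the closest relation to the cortical score. Over 12 rats r was 0.89 (permutation test, p = 0.0001, adjusted p = 0.002) and rho was 0.90 (permutation test, p = 0.00038). The coefficient was 0.89 within CIE and 0.89 within Control rats, and 0.86 without the 2 rats farthest on the score. Over the 10 rats without CIE rat 2 and Control rat 10 it was 0.85, which missed the threshold (permutation test, adjusted p = 0.110). There, the 1 of 40 relations to pass was *Cacnb1* with the CeA neuron score, at r = 0.89 and rho = 0.78 (permutation test, adjusted p = 0.0432). It did not pass over all 12 rats, where r was 0.54 (permutation test, adjusted p = 0.170), 0.22 within Control rats and 0.32 without the 2 farthest rats. What part neighbouring tissue had in the levels of the subunits was not tested beyond these fits.

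**Figure D4:**
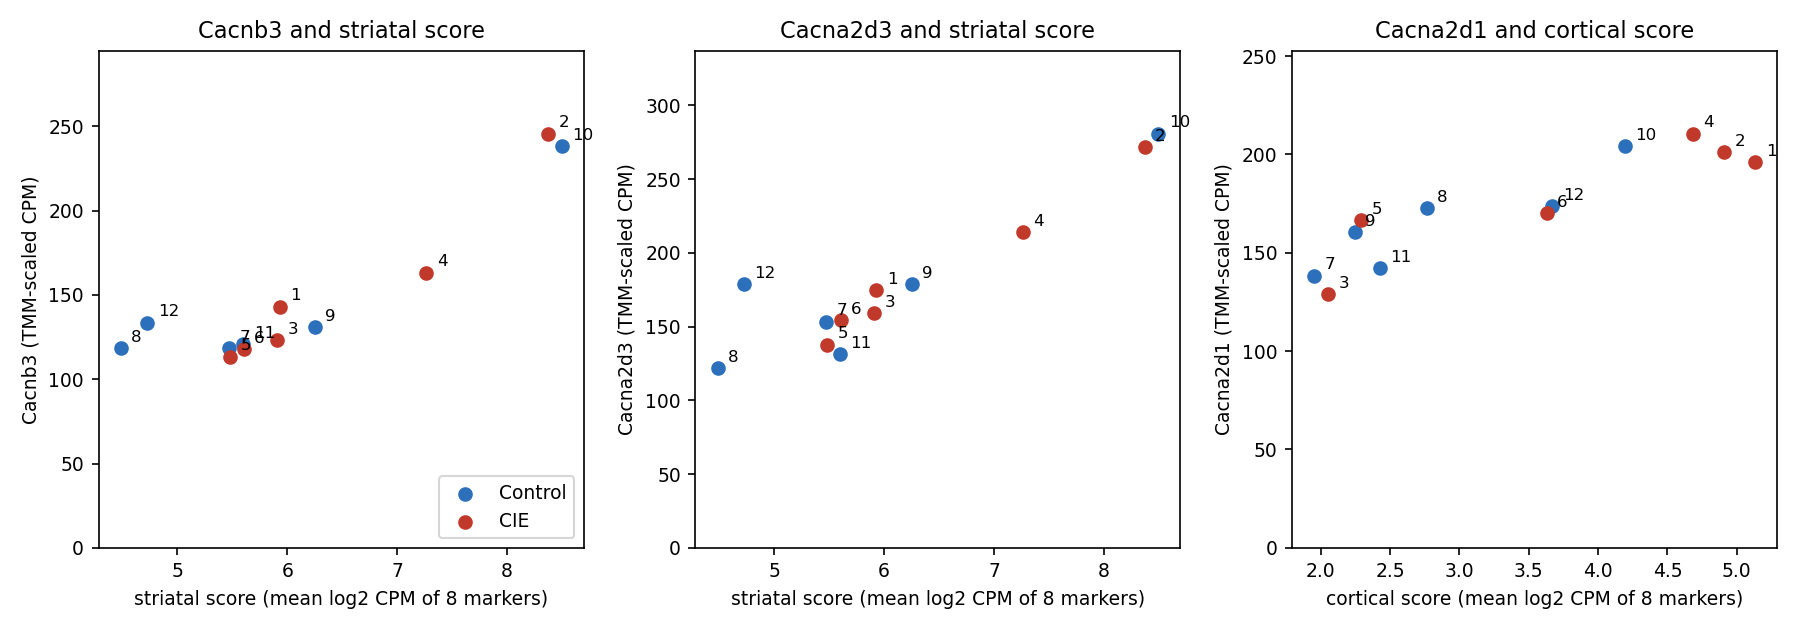
Level of *Cacnb3* and *Cacna2d3* (CPM, vertical axis) against the striatal score and of *Cacna2d1* against the cortical score (mean log2 CPM of 8 markers, horizontal axis), with 1 numbered point per rat, CIE in red and Control in blue. CIE rat 2 and Control rat 10 are alone at the right of the first and second panels, while *Cacna2d1* runs from 129 to 211 CPM along the cortical score without a gap of that kind.

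The genes whose pattern over the 12 rats was most like each member were found among 13218 or 13219 genes with a mean of at least 1 CPM, by Pearson r after removal of the group means, as a description. For *Cacnb1* they were *Itpka* (r = 0.997), a kinase of inositol trisphosphate in dendritic spines, then *Rasgef1a* and *Srf*. For *Cacnb2* they were *Lrrc7*, *Nrg1* and *Bahd1* (0.971 to 0.973), and for *Cacnb3* the prohormone convertase *Pcsk2*, the calcium pump *Atp2b1* and the phosphodiesterase *Pde1b* (0.980 to 0.989). For *Cacnb4* they were *Bcr*, *Zfyve28* and the ryanodine receptor *Ryr3* (0.985 to 0.987). *Cacna2d3* was most like *Fbxo34*, the potassium channel subunit *Kcnab1* and *Osbpl8* (0.977 to 0.987). *Cacna2d1* was most like *Galm*, *Mettl11b* and the ephrin receptor *Epha7* (0.925 to 0.949), and *Cacna2d2* most like *Flii* and *Map4k2* (0.936 and 0.913). *Cacna2d4* was most like *Cyp4b1*, *Cpz* and *Tob2* (0.917 to 0.929). Without CIE rat 2 and Control rat 10 the coefficients of the genes named here were 0.890 to 0.996.

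The pores that these subunits join came next. Of the 7 high-voltage-activated pore genes, 2 were higher and 1 lower in CIE at nominal p, and none passed 5% FDR. Of all genes tested, 8.31% passed nominal p in either direction and 0.363% passed 5% FDR. *Cacna1d* and *Cacna1f* encode L-type pores and *Cacna1e* the R-type pore. *Cacna1e* was at 510 ± 117 CPM in CIE and 406 ± 62.6 CPM in Control (log2 fold change 0.33, 95% interval 0.01 to 0.65, edgeR FDR 0.578). *Cacna1d* was at 136 ± 25.1 and 114 ± 11.5 CPM (0.26, 0.01 to 0.50, edgeR FDR 0.579). The scarce *Cacna1f*, with 421 counts over all rats, was at 0.326 ± 0.0990 and 0.695 ± 0.221 CPM (-1.09, -1.73 to -0.45, edgeR FDR 0.210). The exact permutation test, two-sided, gave p = 0.0996 for *Cacna1e*, p = 0.0866 for *Cacna1d* and p = 0.00866 for *Cacna1f*. By that test *Cacna1e* and *Cacna1d* did not pass 0.05 with all 12 rats. The calls of *Cacna1d* and *Cacna1e* were lost without CIE rats 1, 2 or 4 or Control rats 8, 9 or 11, each left out alone. They were also lost without both CIE rat 2 and Control rat 10, with 1 surrogate variable, and with the cortical and striatal or the myelin scores in the fit, while *Cacna1f* passed in each of these fits. None of the 3 low-voltage-activated pore genes passed nominal p, and *Cacna1h* had the smallest p, at a log2 fold change of 0.06 with a 95% interval of -0.13 to 0.25.

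Genes of proteins that act with the auxiliary subunits were listed too. Of the 8 γ subunit genes, which include the AMPA receptor partners, none passed nominal p, where 8.31% of all genes did. *Cacng6* had the smallest p, at -0.40 with a 95% interval of -0.996 to 0.197. None of the 4 RGK GTPase genes, whose products bind β subunits and inhibit the channel, passed either, and *Rrad* had the smallest p at -0.20 (-0.63 to 0.24). Of the α2δ-related genes 4 of the 6 listed were tested. *Thbs2*, which encodes a thrombospondin, was lower in CIE, at 1.61 ± 0.6253 CPM against 3.45 ± 0.651 CPM in Control (SD, n = 6 each). Its log2 fold change was -1.09 with a 95% interval of -1.61 to -0.58 (edgeR, FDR 0.0861; exact permutation test, two-sided, p = 0.00433), and it was the only gene of the list past nominal p. Of the 5 endothelial genes past nominal p out of 6, all were lower as well, and their relation to *Thbs2* was not tested. *Thbs3* was not analysed here and *Thbs4*, with 93 counts over all rats, was below the filter.

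Among the 6 genes of active zone proteins that tether channels at release sites, 2 were higher in CIE at nominal p. Of all genes tested, 8.31% passed in either direction. Both of these active zone genes encode RIM-binding proteins. *Rimbp2* was at 138 ± 25.7 CPM in CIE and 113 ± 12.4 CPM in Control (SD, n = 6 each), a log2 fold change of 0.30 with a 95% interval of 0.05 to 0.54 (edgeR, FDR 0.475; exact permutation test, two-sided, p = 0.0390). *Tspoap1*, listed under its older symbol *Bzrap1*, was at 182 ± 28.4 CPM and 149.6 ± 14.95 CPM (SD, n = 6 each), a log2 fold change of 0.28 with a 95% interval of 0.06 to 0.50 (edgeR, FDR 0.458; exact permutation test, two-sided, p = 0.0455). The RIM genes *Rims1*, *Rims2*, *Rims3* and *Rims4* had log2 fold changes of -0.05 to 0.11 and did not pass in this fit. *Rims3* was higher in CIE at nominal p with 1 surrogate variable and with the cortical and striatal scores in the fit. Without CIE rat 3 the list had 3 genes past nominal p, with *Rims1* added, and without CIE rat 1 it had *Bzrap1* alone. The share of all genes called was not taken for the fits without CIE rat 1 or CIE rat 3 or with 1 surrogate variable. It was 9.11% with the cortical and striatal scores and 10.7% with the myelin score. The *Tspoap1* call was lost with the cortical and striatal scores in the fit, and the *Rimbp2* call with the myelin score.

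Gene overlap may limit some counts. On the RefSeq annotation of GRCr8 each of the 8 members shares its span with at least 1 other gene. Among the protein-coding partners were *Rpl19* for *Cacnb1*, *Tuba1c* for *Cacnb3*, *Lrtm1* for *Cacna2d3*, and *Lrtm2* and *Adipor2* for *Cacna2d4*. *Lrtm2* was listed at 0 in all 12 rats, *Lrtm1* was not found under that symbol, and *Adipor2* reached 116 CPM in its highest rat. How reads in shared stretches were assigned, and whether strand was used, is not given in the sources used here. Only gene spans were compared and not exons, so how many reads of such pairs cannot be told apart is not known.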

How the data were processed

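RNA-Seq counts were available for 12 CeA libraries, 1 per rat. Per the study's methods and the labels, the authors aligned read pairs with BWA to the Rnor_6.0 build, and deposited raw counts per gene from HTSeq. The authors tested them with DESeq2 1.26. The versions of BWA and HTSeq, the gene annotation, strand and the treatment of overlapping genes are not given in the sources used here. The deposited table held 37209 genes, each line followed by a blank one, and 0 columns of no sample. Library totals were 39082548 to 95647601 counts. Total depth limits mainly *Cacna2d4*, and intervals reflect spread between rats.

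Counts were fitted for all 20944 genes kept by filterByExpr with edgeR 4.0.16 (TMM, quasi-likelihood F test, CIE against Control, no covariates, Benjamini-Hochberg over all genes) in R 4.3.3. Limma 3.58.1, DESeq2 1.42.0 and sva 3.50.0 served as alternatives. The fits were also run on simulated counts, drawn for each gene separately and without tissue differences shared among genes. That run does not test how the fits handle such differences. Levels are TMM-scaled CPM with SD. Log2 CPM for correlations used a prior count of 2. Exact permutation tests ran over all 924 splits of 6 against 6, with 0.00216 as the smallest p. Correlations used 100000 permutations of rats within groups, with Benjamini-Hochberg adjustment over 28 pairs or 40 relations, run under Python 3.11.15 (statsmodels 0.14.6, scipy 1.17.1, numpy 2.4.6, pandas 2.3.3, matplotlib 3.10.9).

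The members, lists and tests were chosen with earlier results of these data known. Named genes are the members, every gene of a related list at nominal p under 0.05 and the one with the smallest p, and the 3 genes most like each member, of which 1 is not reported here. *Tspoap1* and *Tac2* were matched to the older or newer symbols *Bzrap1* and *Tac3* through RefSeq synonyms. Of the marker lists other than myelin and endothelial, the OPC list had 0 of 3 tested genes past nominal p (*Gpr17* was at 0 in all rats). Microglia had 1 lower of 8, and mural cells 2 lower of 3 tested (*Myh11* was at 0 in all rats). Astrocytes had 1 higher and 1 lower of 8, neurons 1 lower of 8 and GABA neurons 0 of 3. Cortical had 1 higher of 8, striatal 0 of 8, CeA neurons 3 lower of 8, and the muscle and photoreceptor lists 0. Over all genes tested, 8.31% passed nominal p in either direction. Family shares could not be divided by transcript length, as no lengths were at hand, so shares of CPM were used in place of the planned shares per length. Rat numbers run on from CIE to Control, so an effect of their order cannot be told apart from CIE.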

Additional observations from a re-analysis of the deposited data

Results flagged for a closer look

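Of 34 sets of 6 rats examined for a single extreme rat (the members and named related genes, by group), 5 held one, where chance gives about 1 in 20. Control rat 10 was the high extreme in 4 of them. It had 137 CPM of *Cacnb2* against 98.4 CPM in the next Control rat, and 238 CPM of *Cacnb3* against 134 CPM. It had 215 CPM of *Cacnb4* against 144 CPM, and 281 CPM of *Cacna2d3* against 179 CPM. These 4 are not separate events, because the genes were correlated across rats and come from 1 library. The same library had a summed striatal marker level of 3981 CPM, and the part of striatal tissue in these values was not tested. The fifth was *Thbs2*, at 2.25 CPM in Control rat 8 against 3.32 CPM in the next lowest Control rat.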

How the results depend on the processing

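The count of members past 5% FDR was 0 in every alternative run. The sign of the log2 fold change was unstable for members near 0. With 1 surrogate variable it was -0.0586 in *Cacnb1*, -0.0944 in *Cacnb3*, -0.0546 in *Cacna2d3* and 0.00807 in *Cacna2d2*. With both the cortical and striatal scores in the fit it was -0.0895 in *Cacnb1*, -0.175 in *Cacnb3*, -0.0249 in *Cacnb4*, -0.0548 in *Cacna2d1*, -0.127 in *Cacna2d3* and 0.0470 in *Cacna2d2*. With the myelin score it was -0.0535 in *Cacnb1* and 0.167 in *Cacna2d2*. Leaving out each rat in turn gave -0.0263 to 0.141 for *Cacnb1*, 0.16 to 0.39 for *Cacnb2*, -0.12 to 0.28 for *Cacnb3*, 0.06 to 0.29 for *Cacnb4*, 0.06 to 0.19 for *Cacna2d1*, -0.109 to 0.0247 for *Cacna2d2*, -0.0506 to 0.281 for *Cacna2d3* and 0.36 to 1.25 for *Cacna2d4*. The cause of these changes was not tested. Normalization, filters and DESeq2 changed no direction and no call of a member that they fitted. The filter of at least 10 counts in every rat kept 7 members and left out *Cacna2d4*, which was not tested there. At nominal p, members numbered 3 with limma-voom, 1 with either set of marker scores, 0 to 2 with single rats left out, and 1 without both CIE rat 2 and Control rat 10, a setting chosen after seeing the data. Over all genes 8.31% passed with all rats, 17.2% with limma-voom and 8.81% without both rats. The share was 9.11% with the cortical and striatal scores and 10.7% with the myelin score. It was not taken for the surrogate variable or for most fits without a single rat. Pore genes numbered 3 with all rats, 6 with limma-voom, 1 with the surrogate variable, 1 with either set of scores, 1 to 6 with single rats left out, and 1 without both rats. γ genes numbered 1 with the surrogate variable, 1 with the cortical and striatal scores (*Cacng4*), and 0 to 1 with single rats left out. Active zone genes numbered 1 with the myelin score and 1 to 3 with single rats left out. Correlated pairs fell from 11 to 3 and score relations from 7 to 1 without both rats, and single rats gave 8 to 15 and 6 to 10. Of 186 counts under alternatives 161 stayed within 1.5 times and 25 moved. The 161 include counts of 0 that stayed at 0, such as members past 5% FDR and RGK genes in every setting. They are therefore no measure of how stable the counts above 0 were. Family shares per length were not run. No paired analysis was possible because the groups share no replicate numbers. Depth limits *Cacna2d4*, with 4 counts in 1 rat.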
